A study of Macaca mulatta and Mus musculus and Rattus norvegicus with 12 samples.

Results

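The HOXA cluster genes are the 10 genes HOXA2, HOXA3, HOXA4, HOXA5, HOXA6, HOXA7, HOXA9, HOXA10, HOXA11 and HOXA13, looked up by symbol among the 38599 symbols of the mouse table, the 35259 of the rat table and the 28641 of the macaque table. All 10 had a row in mouse and 9 of them had a read. In rat 7 had a row and 2 had a read, and in macaque 5 had a row and all 5 had reads. HOXA4, HOXA5 and HOXA13 had no row under their symbol in rat, and HOXA4, HOXA6, HOXA10, HOXA11 and HOXA13 had none in macaque. Rows that a description or a gene number ties to a missing gene are given separately.

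HOX genes encode homeodomain transcription factors that give cells of the embryo a position along the body axis. They lie in clusters, and genes at one end of a cluster are used near the head while genes at the other end are used toward the tail and in the outer parts of the limbs. The posterior genes HOXA10, HOXA11 and HOXA13 take part in patterning the limb from its base to its tip, and much of the skull vault is known to form from cells that use few or no HOX genes. Bone cells of the adult can retain part of such a positional pattern.

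RNA was taken from calvaria (the skull vault) and tibia after periosteum, surface cells and, in rodent tibia, marrow had been removed. The study describes the samples as enriched in osteocytes, the cells that live inside the mineralized matrix. Markers of other cell types also had reads and are given below. In mouse (C57BL6, 4 month) calvaria was represented by 2 libraries (M4, M8) and tibia by 2 (M5, M7), each from a pool of 3 animals. In rat (Wistar, 6 month) there was 1 calvaria library, R1, and 1 tibia library, R3, each a pool of 2 animals and without replicates. In rhesus macaque calvaria was represented by 3 libraries (G1, G3, T1) and tibia by 3 (G2, G4, T2), each from 1 animal, with an age of 4 to 6 that the labels give in months and the methods of the study in years. All animals were female by the study's methods, and none carried a transgene or received a treatment. Both sites were sampled from the same pools or animals, although which library pairs with which is not labelled. All rodent libraries were sequenced on one lane and all macaque libraries on another, so that species, lane, genome and annotation cannot be told apart. Reads on named genes numbered between 13934813 and 16826535 in mouse, 14255423 in R1 and 12233256 in R3, and between 7951585 and 10342459 in macaque, so that 3 reads stood for 0.178 to 0.377 CPM (reads scaled to a common library total of 1e6) before normalization. CPM below are normalized with TMM factors in mouse and macaque, and errors are SD over libraries.

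In mouse the cluster lies on chromosome 6 (GRCm38, GENCODE vM21), with all 10 protein-coding genes on the minus strand, from HOXA2 at chr6:52162417-52164831 to HOXA13 at chr6:52257694-52260880. The stretch of the homeobox that encodes the DNA-recognition helix is shown for 8 of the mouse genes because it is the part they share most closely, and so the part where a read could be hardest to assign. Each 39-base stretch runs 5′ to 3′ on the coding strand, and capitals mark an unbroken run of 6 codons that encode the same amino acids in all 10 genes.
HOXA2: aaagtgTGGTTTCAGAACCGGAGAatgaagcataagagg
HOXA4: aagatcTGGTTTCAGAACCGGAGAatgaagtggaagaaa
HOXA5: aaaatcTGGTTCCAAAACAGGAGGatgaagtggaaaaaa
HOXA6: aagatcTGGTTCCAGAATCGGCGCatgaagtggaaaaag
HOXA7: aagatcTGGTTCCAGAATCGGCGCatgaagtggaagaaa
HOXA10: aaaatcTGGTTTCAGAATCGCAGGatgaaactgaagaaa
HOXA11: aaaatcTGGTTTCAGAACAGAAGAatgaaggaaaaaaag
HOXA13: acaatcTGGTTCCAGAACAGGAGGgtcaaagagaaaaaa

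Over the 180 bases of the homeobox the 45 pairs of genes were 49.4% to 88.9% identical, with a median of 61.1%. HOXA6 and HOXA7 were the closest pair, and the longest run of bases shared without a mismatch by 2 of the 10 transcripts was 47. The stretches lie in the last exon of each transcript used, for HOXA10 at chr6:52232560-52232598 and for HOXA11 at chr6:52243408-52243446. Exons of some of the genes overlap those of other annotated genes, and reads were counted without regard to strand. HOXA11 shared 800 of its 2287 exonic bases, 35.0%, with Hoxa11os, a non-coding gene on the opposite strand, while HOXA5, HOXA6, HOXA10 and HOXA13 shared none.

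The first question was whether the HOXA genes differed between the sites in mouse. All 9 genes with a read were lower in calvaria by the sign of the fitted log2 fold change (calvaria over tibia). A call required an adjusted p under 0.2 in edgeR's quasi-likelihood test together with a fold change above 1.1, the thresholds of the study. By this rule 6 of the 9, HOXA3, HOXA5, HOXA7, HOXA9, HOXA10 and HOXA11, were called higher in tibia, against 1.57% of the 22339 symbols tested, and none was called higher in calvaria, against 0.712%. Every tibia library stood above every calvaria library for 8 of the 9, against 18.4% of all tested symbols, and the exception was HOXA6. At an unadjusted p under 0.05 the same 6 were higher in tibia, against 4.43% of all tested symbols. The median log2 fold change was -3.31 over the 9 genes and 0.05 over all tested symbols. With HOXA11 set to its bound and HOXA6 left out, the median was -3.32. In summed CPM of the members, M4 held 5.69 and M8 10.1, whereas M5 held 126 and M7 127.

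The count of called genes depended on which rows were tested. With edgeR's filterByExpr 3 of 7 tested HOXA genes were called (HOXA7, HOXA10 and HOXA11), the adjusted p of HOXA5 was 0.245, and 29 of all symbols were called in place of 510. Of the 6 HOXA genes with a read in every library, the filter the study describes, 2 were called (HOXA7 and HOXA10). The fold changes of the genes kept by these filters moved by less than their standard errors. The calvaria libraries M4 and M8 also stood apart from each other: without M4 7470 symbols were called and without M8 3816, and 7 HOXA genes in each case, the additional gene being HOXA2 without M4 and HOXA4 without M8. In these fits calvaria is a single library that is assumed to vary as the tibia libraries do.

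Of the anterior genes in mouse, HOXA2, which patterns the hindbrain and the second pharyngeal arch, had 4 reads in M4 and 0 in M8 against 8 in M5 and 11 in M7. Both tibia libraries were higher than both calvaria libraries, but the counts were small and the log2 fold change of -2.11 (SE 1.57) was not called (quasi-likelihood test, adjusted p = 0.860). HOXA3, which is needed for the thymus and parathyroid, had 1 and 4 reads in M4 and M8 and 80 and 56 in M5 and M7. The groups stood far apart, at 0.184 ± 0.17 CPM in calvaria and 4.18 ± 0.488 in tibia (SD, n = 2 each), and the log2 fold change was -4.49 (SE 0.79, adjusted p = 0.0128 in the quasi-likelihood test). HOXA4, a gene of the neck and upper trunk, had 10 and 17 reads in M4 and M8 and 26 and 51 in M5 and M7. Its values did not overlap, but M8 at 1.30 CPM was near M5 at 1.47 CPM, and the log2 fold change of -1.35 (SE 0.72) was not called (quasi-likelihood test, adjusted p = 0.711).

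Of the central genes, HOXA5, HOXA7 and HOXA9 had reads at both sites. HOXA5, which patterns the boundary of neck and thorax and the airway, had 14 reads in M4 and 24 in M8 against 242 in M5 and 193 in M7. This amounted to 1.36 ± 0.660 CPM in calvaria and 13.4 ± 0.335 in tibia (SD, n = 2 each), a log2 fold change of -3.31 (SE 0.46, adjusted p = 0.00188 in the quasi-likelihood test). HOXA6 had 1 read in all, in M7, so that no difference between the sites was detectable at this depth. HOXA7, active in the trunk and in blood progenitors, had 23 and 21 reads in M4 and M8 and 283 and 219 in M5 and M7, and the libraries of each site lay close together. Its log2 fold change was -3.33 (SE 0.40, adjusted p = 0.000652 in the quasi-likelihood test). HOXA9, best known from blood stem cells and leukaemia, had the most calvarial reads of the cluster, 32 in M4 and 63 in M8, against 391 in M5 and 355 in M7. The 3.42 ± 1.95 CPM of calvaria compared with 23.2 ± 1.55 of tibia (SD, n = 2 each), and the log2 fold change of -2.77 (SE 0.41) was called (quasi-likelihood test, adjusted p = 0.00345).

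Of the posterior genes, HOXA10 and HOXA11 had reads in tibia and few or none in calvaria. HOXA10, which patterns the lumbar region, the base of the limb and the uterus, had 5 reads in M4 and 3 in M8 but 917 in M5 and 808 in M7. It was 188-fold higher in tibia, at 53.5 ± 2.44 CPM against 0.274 ± 0.0646 (SD, n = 2 each), with a log2 fold change of -7.55 (SE 0.40, adjusted p = 3.77e-07 in the quasi-likelihood test). It alone held 41.1% of the HOXA reads of M5 and 43.4% of those of M7. HOXA11, a gene of the middle limb segment in which the tibia lies, had no read in either calvaria library and 282 in M5 and 167 in M7. Set against 3 reads in each calvaria library, tibia was at least 65.1-fold higher (quasi-likelihood test, adjusted p = 2.95e-05). Hoxa11os had likewise 0 reads in both calvaria libraries, with 198 in M5 and 127 in M7, and reads in the part that both genes share cannot be assigned to a strand. HOXA13, a gene of the hand, foot and urogenital tract, had 0 reads in all 4 mouse libraries, each of which allows up to 3 reads by counting error alone.

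**Figure D1:**
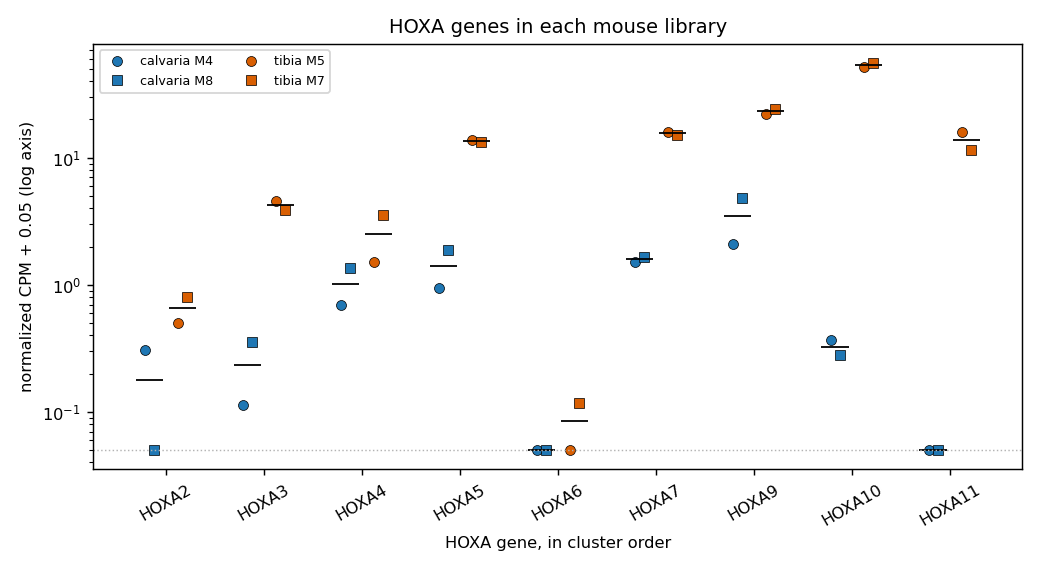
Normalized CPM of the 9 HOXA genes with a read in mouse, plus 0.05, on a log axis, in cluster order; each point is 1 library, blue for calvaria and orange for tibia, bars are means and the dotted line marks 0 reads. HOXA10 shows the widest gap between sites of the genes with reads at both, and HOXA11 has no calvarial read.

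In macaque all 5 genes with a row under their symbol, HOXA2, HOXA3, HOXA5, HOXA7 and HOXA9, were called higher in tibia, against 9.43% of the 18894 symbols tested, and 10.3% of symbols were called higher in calvaria. Every tibia library stood above every calvaria library for the 5, against 12.1% of all tested symbols. The median log2 fold change was -5.19 over the 5 genes and 0.03 over all tested symbols. At an unadjusted p under 0.05 all 5 were higher in tibia, against 10.4% of tested symbols. These 5 calls remained without any 1 of the 6 libraries. Summed over the 5 genes, calvaria libraries held 2.54 to 3.01 CPM and tibia libraries 152 in G2, 167 in G4 and 88.3 in T2.

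HOXA2 had 1 read in G1 and 0 in G3 and T1, against 15, 17 and 20 in G2, G4 and T2. The 3 tibia libraries were alike, and pooled reads gave a tibia to calvaria ratio of 45.2 with a 95% counting interval of 7.76 to 1819, beside a log2 fold change of -5.08 (SE 1.20, adjusted p = 0.00305 in the quasi-likelihood test). HOXA3 had 1, 0 and 3 reads in G1, G3 and T1 and 98, 145 and 80 in G2, G4 and T2. Its levels were 0.161 ± 0.185 CPM in calvaria and 11.7 ± 4.47 in tibia (SD, n = 3 each), a log2 fold change of -6.04 (SE 0.61, adjusted p = 1.75e-09 in the quasi-likelihood test).

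HOXA5 had 9, 1 and 3 reads in G1, G3 and T1 and 709, 770 and 236 in G2, G4 and T2. It was 115-fold higher in tibia, at 62.8 ± 34.9 CPM against 0.525 ± 0.50 (SD, n = 3 each), with a log2 fold change of -6.85 (SE 0.46, adjusted p = 5.03e-14 in the quasi-likelihood test). T2, at 22.9 CPM, held less of it than G2 at 77.5 and G4 at 87.9. HOXA7 had 2, 8 and 5 reads in calvaria and 59, 43 and 86 in tibia, in the same library order, and a log2 fold change of -3.39 (SE 0.56, adjusted p = 2.24e-05 in the quasi-likelihood test). HOXA9 had 10, 15 and 10 reads in calvaria and 507, 485 and 488 in tibia. It was 36.5-fold higher in tibia, at 52.7 ± 4.63 CPM against 1.43 ± 0.388 (SD, n = 3 each), and its tibia libraries were the most even of the 5 genes in reads (log2 fold change -5.19, SE 0.30, adjusted p = 9.49e-16 in the quasi-likelihood test).

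HOXA10 and HOXA13 had macaque rows under a gene number only, matched through a RefSeq table of a newer assembly. The HOXA10 row, LOC704713, had 3, 4 and 13 reads in G1, G3 and T1 and 1180, 1223 and 1907 in G2, G4 and T2. Its level was 0.813 ± 0.664 CPM in calvaria and 151 ± 29.8 in tibia (SD, n = 3 each), 182-fold higher, with a log2 fold change of -7.51 (SE 0.32, adjusted p = 8.09e-20 in the quasi-likelihood test). The HOXA13 row, LOC704280, had 0 reads in the 3 calvaria libraries and 1, 4 and 8 in G2, G4 and T2. It passed the threshold (adjusted p = 0.158, quasi-likelihood test), but not when any 1 of G1, G3, G4, T1 or T2 was left out, when the highest adjusted p was 0.320.

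**Figure D2:**
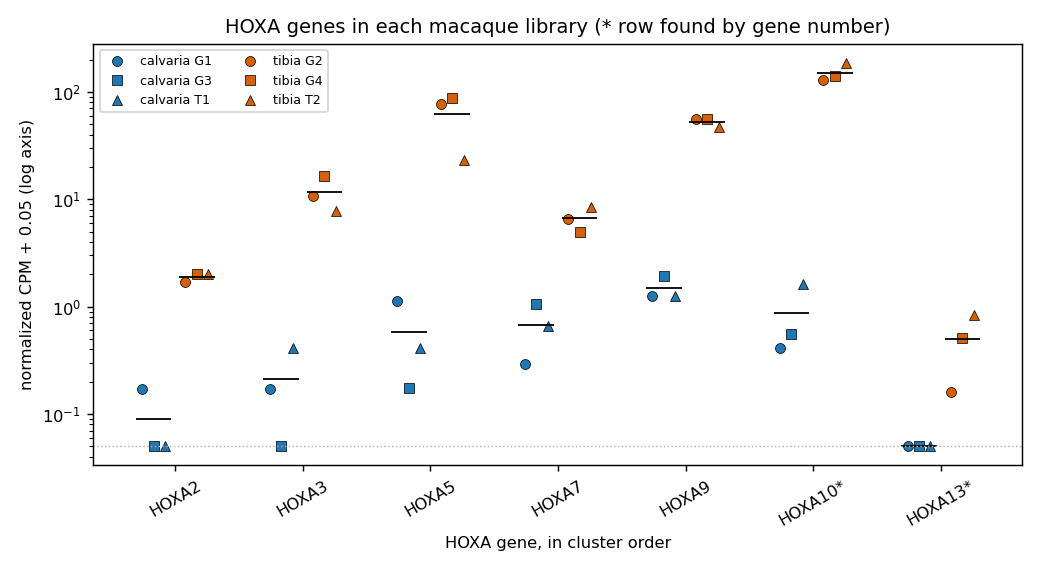
Normalized CPM of the HOXA genes in macaque, plus 0.05, on a log axis, in cluster order; each point is 1 library, blue for calvaria and orange for tibia, bars are means, the dotted line marks 0 reads and an asterisk marks a row found by gene number. No tibia point falls among the calvaria points of its gene, and T2 is the lowest tibia library for HOXA5.

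In rat 2 genes could be compared. HOXA2 had 0 reads in R1 and 16 in R3, at least 6.21-fold higher in tibia when R1 is set to 3 reads. HOXA3 had 2 reads in R1 and 41 in R3, a ratio of 23.9 with a 95% counting interval of 6.20 to 204. With 1 read added the log2 ratios of calvaria over tibia were -4.31 and -4.03, so that both passed the threshold of 2 in the direction of tibia, as did 8.14% of the 19234 symbols with a read. No replicate check exists for these ratios, and the median log2 ratio of all symbols was -0.29. HOXA6, HOXA7, HOXA9, HOXA10 and HOXA11 were listed at 0 in both rat libraries. The study describes HOXA7 and HOXA11 as higher in tibia in every species it examined. With 0 reads at both sites, neither gene could be compared in rat here. HOXA11 could not be compared in macaque either, where it had no row under its symbol. A row described as Hox-A4-like, LOC100912525, had 8 reads in R1 and 49 in R3, a ratio of 7.14 (95% counting interval 3.35 to 17.5).

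A further question was whether the site difference had the same size in mouse and macaque. Of the 6 genes with a value in both, 2 passed a species by site interaction test at a false discovery rate under 0.2, against 4.89% of the 11565 symbols compared. HOXA9 had log2 fold changes of -2.77 (mouse) and -5.19 (macaque), and its interaction of -2.41 (macaque minus mouse, SE 0.50) had an adjusted p of 0.0555 in the quasi-likelihood test. For HOXA5 the interaction was -3.54 (SE 0.96, adjusted p = 0.130 in the quasi-likelihood test). Its macaque row spans 16054 bases of the genome against 2834 in mouse, and whether both count the same exons was not tested. The call of HOXA5 was lost in 7 of the 10 fits that left out 1 library (M5, M7, M8, G2, G3, G4 or T1, with adjusted p up to 0.410) and that of HOXA9 without M5 or M7 (adjusted p up to 0.294), and both kept their sign. HOXA10 had an interaction of 0.03 (SE 0.31) and HOXA7 one of -0.05 (SE 0.60), and neither passed. The SE of HOXA10 was 0.17 with filterByExpr and 1.41 without G2, so it does not measure how precisely the species match. HOXA2, at -3.10 (SE 1.90), and HOXA3, at -1.59 (SE 1.30), had wide errors and did not pass.

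**Figure D3:**
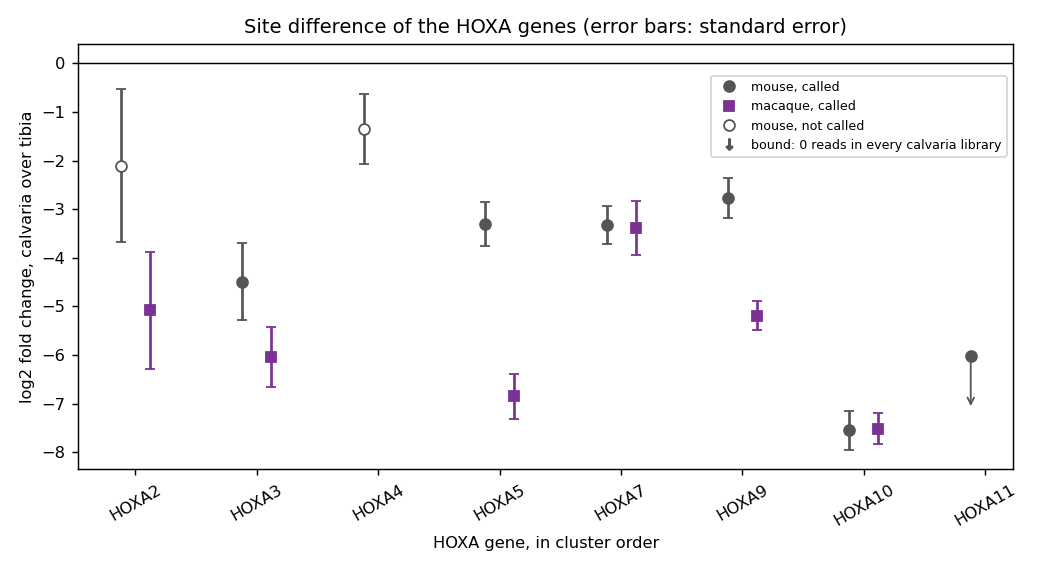
Log2 fold change of calvaria over tibia in mouse (grey circles) and macaque (purple squares) for the HOXA genes in cluster order, with standard errors; filled symbols were called, and the arrow marks the bound of HOXA11 in mouse. HOXA7 and HOXA10 lie at nearly the same value in both species, while HOXA5 and HOXA9 lie lower in macaque.

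Levels of different genes can be compared only per exonic length, given here as normalized CPM per kilobase. In mouse tibia HOXA10 was highest at 17.0 ± 0.777 (SD, n = 2), followed by HOXA9 at 7.18 ± 0.479 and HOXA5 at 7.16 ± 0.178, whose libraries overlapped. HOXA11 at 5.98 ± 1.39, HOXA7 at 2.72 ± 0.126, HOXA3 at 1.64 ± 0.192 and HOXA4 at 1.62 ± 0.935 came next, and HOXA3 and HOXA4 overlapped. HOXA2 was at 0.339 ± 0.12 and HOXA6 at 0.0489 ± 0.0692. In mouse calvaria the order began with HOXA9 at 1.06 ± 0.603, HOXA5 at 0.726 ± 0.352 and HOXA4 at 0.633 ± 0.303, each overlapping the next, and HOXA10 was at 0.0873 ± 0.0206. In macaque tibia HOXA10 was at 39 ± 7.68 (SD, n = 3), HOXA5 at 28.7 ± 16.0 and HOXA9 at 25.6 ± 2.25, with overlap between neighbours, then HOXA7 at 14.4 ± 3.79, HOXA3 at 3.21 ± 1.23 and HOXA2 at 1.02 ± 0.0961. The places of HOXA3, HOXA7 and HOXA9 rest on their gene models. HOXA7 had 5684 exonic bases in the mouse table and 455 in the macaque table, while the mouse GENCODE model has 2876. In mouse HOXA9 had 3229 in the table and 5580 in GENCODE, and HOXA3 2543 and 6014. The same reads over GENCODE lengths would place both lower in the order, but reads were not recounted on those models.

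The genes on either side of the cluster were measured in the same libraries. Of the 6 flanking genes with a row in mouse, none was called, where 1.57% of all tested symbols were called higher in tibia and 0.712% in calvaria. In mouse every tibia library stood above every calvaria library for EVX1, HIBADH and JAZF1, against 18.4% of all tested symbols. This did not hold for SNX10, SKAP2 or TAX1BP1, nor for any flanking gene in macaque, against 12.1% there. SKAP2, an adaptor protein of blood cells 0.15 megabases before HOXA2, had a log2 fold change of 0.02 (SE 0.26), and SNX10, a sorting nexin of osteoclasts, one of 0.02 (SE 0.29). Past HOXA13, the homeobox gene EVX1 had 23 reads in M4 and 0 in M8 against 43 in M5 and 36 in M7, with a log2 fold change of -1.69 (SE 1.00, quasi-likelihood test, adjusted p = 0.790). The log2 fold changes of HIBADH, an enzyme of valine breakdown, TAX1BP1, an autophagy adaptor, and JAZF1, a zinc finger cofactor, lay at -0.34 (SE 0.32), -0.11 (SE 0.26) and -0.69 (SE 0.54). In macaque none of the 5 flanking genes with a read was called, where 9.43% of all tested symbols were called higher in tibia and 10.3% in calvaria. Their log2 fold changes in macaque were 0.47 for SNX10, 0.66 for SKAP2, -0.22 for HIBADH, 0.05 for TAX1BP1 and 0.23 for JAZF1. In rat the log2 ratios of the same 5 genes lay between -0.32 and 0.32. Of the 11 non-coding symbols listed for the cluster, 2 had a row in mouse and 1 in each of the other species. Hoxa11os had reads in mouse, MIR196B was at 0 reads in each of the 3 species, and the rest were not measured.

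**Figure D4:**
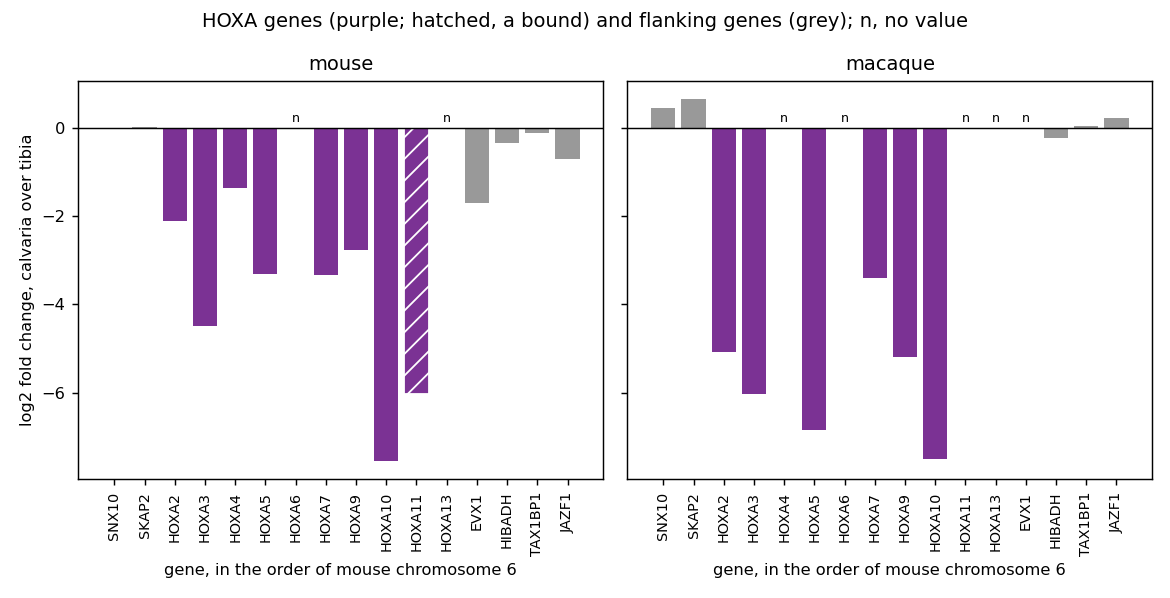
Log2 fold change of calvaria over tibia for the HOXA genes (purple) and the genes flanking them (grey), in the order of mouse chromosome 6, for mouse and macaque; the hatched bar is a bound and n marks a gene without a value. Flanking genes with reads in macaque lie between -0.22 and 0.66, and EVX1 in mouse is the flanking gene farthest from 0.

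The other HOX clusters were described by their 28 symbols. In mouse 25 had a read, of which 10 were called higher in tibia, against 1.57% of all tested symbols, and 0 in calvaria, with a median log2 fold change of -3.94 (-3.48 with bounds). In macaque 7 had a read and all 7 were called higher in tibia, against 9.43% of all tested symbols, with a median of -5.23 (-3.88 with bounds). One of these 7 rows, under the symbol HOXC6, is described as Hox-A6-like. It had 5, 6 and 8 reads in G2, G4 and T2 and none in calvaria. This row falls between those of HOXA7 and HOXA3, within the HOXA cluster, and so is probably HOXA6 and not a gene of another cluster. Rows were matched by symbol, so it was not counted as HOXA6, and the 7 calls and both macaque medians include it. In rat 13 of 16 passed the ratio threshold toward tibia, against 8.14% of all symbols with a read. HOXC9, a gene of the trunk, had 0 reads in M4 and M8 against 471 in M5 and 398 in M7, and HOXC10, a gene of the lumbar region and hind limb, 0 against 272 and 239. HOXC10 in macaque had 0 reads in the 3 calvaria libraries and 252, 212 and 336 in G2, G4 and T2, and HOXD10 0 against 56, 55 and 148. HOXB1, the gene with a sign toward calvaria in mouse, had 2 reads in all, in M8.

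TALE homeodomain proteins bind DNA together with HOX proteins, and of 9 with a read in mouse 1 was called higher in calvaria, as was 1 of 4 in macaque, against 0.712% and 10.3% of all tested symbols. In both species this was MEIS2, with log2 fold changes of 2.77 (SE 0.62, adjusted p = 0.0537) in mouse and 1.11 (SE 0.37, adjusted p = 0.0503) in macaque by the quasi-likelihood test. Its reads in mouse were 184 in M4, 42 in M8, 17 in M5 and 18 in M7. PKNOX2 at -0.69 (SE 0.56) and PBX2 at 0.41 (SE 0.27) were not called in mouse, and in macaque MEIS1 at 0.28 (SE 0.31) and PKNOX1 at -0.19 (SE 0.38) were not. The lists' medians were 0.02 in mouse and 0.31 in macaque.

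Polycomb proteins keep HOX genes silent and trithorax proteins keep them active. None of 16 such genes was called in mouse, where 1.57% of all tested symbols were called higher in tibia and 0.712% in calvaria. In mouse CBX7 had a log2 fold change of -0.86 (SE 0.34), BMI1 of -0.61 (SE 0.27), EZH2 of 0.51 (SE 0.28) and KDM6B of 0.39 (SE 0.29). In macaque 3 of 8 were called higher in tibia and 1 in calvaria, against 9.43% and 10.3% of all tested symbols. CBX7, a reader subunit of Polycomb complex 1, had 983, 1027 and 888 reads in G1, G3 and T1 and 2034, 2254 and 1602 in G2, G4 and T2, with a log2 fold change of -0.84 (SE 0.19, adjusted p = 0.00203 in the quasi-likelihood test). EZH1 changed by -1.12 (SE 0.28, adjusted p = 0.00515) and its paralog EZH2, a histone methyltransferase, by 1.55 (SE 0.24, adjusted p = 9.61e-06), both by the quasi-likelihood test, and ASH2L at 0.11 (SE 0.20) was not called. The medians were 0.14 in mouse and -0.52 in macaque.

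The genes most like the HOXA genes across all 12 libraries were ranked against the mean pattern of HOXA2, HOXA3, HOXA7 and HOXA9, the 4 with a row in each species. HOXA7 and HOXA9 were at 0 in both rat libraries, so that in rat the pattern rests on HOXA2 and HOXA3. Log2 values, centred within each species, were compared over 7775 symbols that are no HOX gene, and since each library enters both patterns, r is a description. NR3C2, the mineralocorticoid receptor, had r = 0.978, followed by MPP6, a scaffold protein, at 0.971, RFTN1, a lipid raft protein, at 0.955, PDCD4, an inhibitor of translation, at 0.951 and PRPF39, a splicing factor, at 0.950. NR3C2 had a log2 fold change of -1.96 in macaque (adjusted p = 0.0298, quasi-likelihood test), and of -1.85 in mouse, which was not called (adjusted p = 0.459). MPP6 lies on the chromosome of the cluster in mouse, 1.96 megabases before HOXA2, and had log2 fold changes of -0.66 in mouse (adjusted p = 0.438) and -1.36 in macaque (adjusted p = 7.47e-07) in the quasi-likelihood test. Their rat log2 ratios of calvaria over tibia were -0.41 for NR3C2 and -0.70 for MPP6, beside a median of -0.29 over all symbols. A high r says nothing about the size of a difference. RFTN1, PDCD4 and PRPF39 had log2 fold changes of -0.32, -0.44 and -0.29 in mouse, none of them called. Rat ratios of these genes were -0.27, -0.06 and -0.13. In macaque RFTN1 at -0.72 and PDCD4 at -1.01 were called, and PRPF39 had no value under its symbol.

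Cell type markers were read in the same libraries, since in bulk bone fewer cells of a type and less RNA per cell cannot be told apart. The 8 osteocyte markers summed to 1500 to 2896 CPM in mouse calvaria and 8768 to 11557 in tibia, a ratio of 4.62 for tibia over calvaria. In macaque 5 of the 8 had a row, and they summed to 5924 to 6619 in calvaria and 8726 to 17691 in tibia, a ratio of 2.30, with T2 the lowest tibia library. In rat the sums were 1262 and 8162, and FGF23 and DKK1 were listed at 0. No osteocyte marker with a row was at 0 in mouse or macaque. The 8 blood and marrow markers in mouse summed to 2069 to 3404 CPM in calvaria and 1701 to 1983 in tibia, and the 3 with a row in macaque to 1333 to 2287 and 419 to 763. Muscle markers in mouse ranged from 1060 to 1327 in calvaria and 328 to 1605 in tibia, with MYOG at 0 in both calvaria libraries and in M5 and PAX7 at 0 in both tibia libraries, and in macaque none of the 4 with a row brought a sum above 5.48, with CKM and MYOG at 0 in every library. In rat they summed to 6.87 in R1 and 766 in R3. Cartilage markers were higher in mouse tibia (753 to 916) than calvaria (193 to 393), and fat markers likewise (938 to 1078 against 196 to 505), whereas in macaque cartilage markers ranged from 47.3 to 106 in calvaria and 40.6 to 93.6 in tibia, and fat markers from 1679 to 2548 and 681 to 1435. Endothelial markers summed to 127 to 132 CPM in mouse calvaria and 182 to 191 in tibia without overlap, and to 399 to 495 and 475 to 519 in macaque, and fibroblast and periosteum markers at 1091 in M4, 235 in M8, 372 to 382 in mouse tibia, 317 to 431 in macaque calvaria and 553 to 652 in macaque tibia. The part of any of these in the HOXA differences was not tested.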

How the data were processed

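Poly(A)+ RNA was sequenced from 12 libraries, and the authors deposited for each species a table with a raw count of reads per gene and library. By the study's methods reads were mapped with HISAT2 to mm10, rn6 and the MacaM macaque assembly, HTSeq-count assigned them to merged exons, ignoring strand. The tables include rows at 0 reads in every library. The submitters' processing notes name BWA 0.7.10-r789 in place of HISAT2, and which was used is not known here. The study lists DKK1 with a CPM at both sites in rat, and macaque values for HOXC8 and HOXC9. In the deposited counts DKK1 had no read in rat, and HOXC8 and HOXC9 had no macaque row under their symbols. These counts therefore differ from those behind the study's results. A normalized signal that the authors give beside the counts was not used. Which reads match several genes equally well, and how they were treated, is not given in the sources used here.

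Rows that named no gene (0.00261% to 0.0663% of reads) were left out, and rows with one symbol were summed. Symbols with at least 1 read in a species were fitted with edgeR 4.0.16 in R 4.3.3 (TMM, quasi-likelihood test, Benjamini-Hochberg adjustment), separately for mouse and macaque. No filter on low counts was applied in these fits, because the study's own filter drops genes with 0 reads in a library. The standard error is the size of the log2 fold change divided by the square root of F, and can be unstable where that change is near 0. The interaction of species and site used 10 libraries, with 5939 macaque gene numbers given RefSeq symbols. Rat ratios used library size and 1 added read. For a site without any read, 3 reads per library were taken as the limit, and where a site had 1 to 3 reads an exact interval at 95% is given. Both cover counting error only, since PCR copies are not independent molecules. Nothing in the labels says that pools share no animals, so p-values measure the spread between these libraries.

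Symbols named besides the 10 HOXA genes were the 2 smallest p-values of each list, species and direction, all flanking and non-coding genes with a row, and the 5 symbols with the highest Pearson r among those with at least 1 CPM in a group of each species. Members and lists were chosen with earlier results of these data known. Steps were tested on simulated data. The study's methods state that the sites were paired, and the pairs were assumed (M4 with M5, M8 with M7, G1 with G2, G3 with G4, T1 with T2). In macaque, after site means were removed, deviations over 11682 genes correlated with r = 0.220, 0.299 and 0.460 in these pairs and with -0.366 to 0.0865 in others. Tables and plots were made in Python 3.11.15, and DESeq2 1.42.0 served as an alternative test. Mouse coordinates are of GRCm38, the build that mm10 names. Promoter and protein sequences were not used here, and a few items that these rules would name are not reported here.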

Additional observations from a re-analysis of the deposited data

Results flagged for a closer look

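The site difference was larger in macaque than in mouse for 2 genes, by an interaction test over all symbols. The interaction (macaque minus mouse log2 fold change) was -3.54 for HOXA5 and -2.41 for HOXA9, and species cannot be told apart from lane, genome and annotation. The gene model of HOXA5 had 1877 exonic bases in mouse and 2185 in macaque, and that of HOXA9 3229 and 2058. On the genome the mouse HOXA5 model spans 2834 bases and the macaque model, described as Hox-A5-like, 16054. The macaque row falls between those of HOXA9 and HOXA7, out of cluster order. Whether the mouse and macaque rows of HOXA5 count the same exons was not tested.

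Rows outside the symbol rule also held reads. The macaque row of HOXA10 by gene number had 4310 reads in the 3 tibia libraries together and 20 in calvaria, and that of HOXA13 had 13 and 0. The macaque row with the symbol HOXC6 and the description Hox-A6-like had 19 reads in tibia and 0 in calvaria. The rat row described as Hox-A4-like had 49 reads in tibia and 8 in calvaria.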

How the results depend on the processing

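All 191 alternative values of the 16 fitted HOXA differences in mouse and macaque kept their sign, 14 lost a call, 2 gained one, and 2 from DESeq2, for HOXA6 in mouse and the HOXA13 row in macaque, had no adjusted p. Of the lost calls, 7 were those of the HOXA13 row in macaque and 7 those of HOXA3, HOXA5 and HOXA9 in mouse under filters on low counts. In mouse 3 HOXA genes were called with filterByExpr, 2 among genes with no library at 0 reads and 0 among symbols with a read in all 3 species, where only HOXA2 and HOXA3 were tested. In macaque the last 2 settings gave 3 and 2, every HOXA gene they tested. The adjusted p rose although fewer genes were tested, and the cause was not tested. Without 1 library the count was 6 to 7 in mouse, 5 in macaque and 0 to 2 for the interaction. With a replicate block for the assumed pairs 6 HOXA genes were called in mouse, 5 in macaque and 2 in the interaction, as without it, and the HOXA13 row lost its call (adjusted p = 0.296). Calls over all symbols in mouse numbered 510, and 29, 14 and 32 under the 3 filters, 295 with the block, 208 at a false discovery rate under 0.05, 7470 without M4, 3816 without M8, 220 without M5 and 312 without M7. In macaque they numbered 3724, and 1978 at 0.05, 1550 at an absolute log2 fold change over 1.1 and 2301 without G3. With library size alone 69.3% of macaque calls were higher in tibia in place of 47.8%, and the median of all symbols moved to -0.18. In rat 1864 symbols passed the threshold, 690 with 5 reads added and 6072 at a threshold of 1, and the 2 HOXA genes passed in each. The alternatives chosen after seeing the data were macaque symbols as printed in the interaction (2 called) and the rows found by gene number (7 called). Depth limits HOXA6 and HOXA13, and the calvarial values of 10 reads or fewer.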

Other observations

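In rat, 6 of the HOXA genes (HOXA5, HOXA6, HOXA9, HOXA10, HOXA11 and HOXA13) had 2 or 3 rows each by symbol or description, 14 rows in all, and every one of them was at 0 reads in both libraries. Of the 4 genes with a single row by name, HOXA2, HOXA3 and the Hox-A4-like row had reads and HOXA7 had none. The row with the symbol Hoxa9 falls between HOXA6 and a row described as Hox-A9. It has 2583 exonic bases, close to the 2574 of the HOXA7 row, whereas the rows described as Hox-A9 have 2210. HOXA7 may therefore also have more than 1 row. Among all rat rows that name a gene, 45.7% had no read. In the same libraries HOXC9 had 0 reads in R1 and 306 in R3, and HOXC10 0 and 107. How reads matching more than 1 of these rows were counted was not tested, and a rat value of 0 for these genes cannot be told apart from such reads.

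Between the 2 mouse calvaria libraries, M8 held more normalized CPM than M4 of HOXA3, HOXA4, HOXA5, HOXA7 and HOXA9 and less of HOXA2 and HOXA10. Only for HOXA9 did the 95% counting intervals of the reads not overlap (21.9 to 45.2 in M4, 48.4 to 80.6 in M8). The osteocyte marker sum was lower in M8 (1500 against 2896 CPM), as were the other marker sums except blood and marrow (3404 against 2069 CPM). The part of any of these in the differences was not tested.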
